A study of Homo sapiens with 12 samples.

Results

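All-trans retinoic acid (ATRA) and the CDK4/6 inhibitor palbociclib (CDK4/6i) were combined in HL60 cells, and the response of each gene to both drugs was set against the sum of its responses to either drug alone. All 12 RNA-Seq libraries of the series entered this comparison. They fall into 4 groups of 3: non-treated cells, ATRA, CDK4/6i and CDK4/6i+ATRA, each drug at 1 µM and each exposure lasting 48 h. HL60 is an established human acute myeloid leukemia line that carries no PML-RARA fusion and was grown in RPMI1640 with fetal bovine serum, so the data describe 1 line, 1 dose of each drug and 1 time. The labels number the libraries as biological replicates, and a figure legend of the study describes its enrichment analysis of them as independent experiments. The interaction of a gene is the log2 level with CDK4/6i+ATRA, minus that with ATRA, minus that with CDK4/6i, plus that of non-treated cells. It is 0 where the folds of the single drugs multiply, and the level that multiplied folds give is called the expected level below. Of 59251 genes in the count table, 31154 had no count in any library and 13318 had enough counts to be tested.

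ATRA binds retinoic acid receptors on DNA and switches them from repression to activation, and in promyelocytic cells it drives differentiation toward granulocytes. CDK4 and CDK6, together with D-type cyclins, phosphorylate the retinoblastoma protein, and their inhibition leaves that protein bound to E2F factors, so that genes for DNA replication and later for mitosis are not switched on. Differentiation and exit from the cell cycle normally go together in the myeloid lineage, and the comparison addresses which functions respond to the pair of drugs beyond, below or against the sum of the single responses.

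Total counts ranged from 12230923 to 14415276 in the CDK4/6i+ATRA libraries and from 15238994 to 18679544 in the others. The 10 most abundant genes took between 9.98% and 11.1% of the counts with CDK4/6i+ATRA and between 6.34% and 8.28% elsewhere, and the TMM factors that scale the libraries were 0.84 to 0.893 and 1.03 to 1.07. All levels are CPM, counts scaled to a common library total with these factors, so they are shares of the sequenced RNA, and fewer cells of a type and less RNA per cell cannot be told apart. A floor of 3 counts lay between 0.155 and 0.275 CPM. Of the markers of the promyelocytic line, MPO, CTSG, CD33 and MYB were present in non-treated cells, whereas ELANE, PRTN3 and AZU1 had 0 counts in all 12 libraries. These 3 genes are listed both on chromosome 19 and on an alternate contig of the genome, as are 708 of the tested genes, whose levels are therefore uncertain. Of 10 markers of other cell types, 8 had at most 5 counts in any library. CD3E and PECAM1 were measured, and the summed level of the 10 markers was 15.2 to 17.7 CPM under the combination, against 25.7 to 27.4 without treatment, 32.9 to 33.6 after ATRA and 32.5 to 34.1 after CDK4/6i, and their part in the results was not tested. CDKN2A, whose gene the line is known to lack, had 55 to 149 counts. TGM2 and CD38, known targets of ATRA, rose from at most 0.480 CPM to 391 CPM or more with ATRA, and with CDK4/6i+ATRA the libraries lay between 1844 and 1920 CPM for TGM2 and between 395 and 411 for CD38. DHRS3, also chosen as a check of ATRA, rose from a mean of 0.04 CPM without treatment to 126 with ATRA. The other check genes, CYP26A1 and RARB, did not rise. CYP26A1 had at most 2 counts in any library, and RARB had means of 0.345 CPM without treatment and 0.335 with ATRA.

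An interaction was called for 6852 of the 13318 tested genes, or 51.4%, of which 3258 (24.5% of the tested genes) were positive and 3594 (27.0%) negative. The single drugs and their combination each moved a large share of the genes. ATRA raised 4272 genes (32.1%) and lowered 4734 (35.5%), CDK4/6i raised 3764 (28.3%) and lowered 3718 (27.9%), and CDK4/6i+ATRA raised 5461 (41.0%) and lowered 5424 (40.7%). The called interactions were divided by the direction of the summed and of the combined effect. In 3581 genes (26.9%) the combined effect had the same direction as the sum and exceeded it, upward in 1401 genes and downward in 2180. In 1248 genes (9.37%) the combined effect fell short of the sum. This class includes genes whose combined effect had the opposite direction to the sum but was not called. In 265 genes (1.99%) the combined effect was reversed, with a called sum in 1 direction and a called combined effect in the other, ending above non-treated cells in 171 and below in 94. In 1574 genes (11.8%) a combined effect emerged although the sum was not called, upward in 957 genes. The remaining 184 genes (1.38%) had a called interaction with neither a called sum nor a called combined effect. All of these contrasts share the same non-treated libraries.

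**Figure D1:**
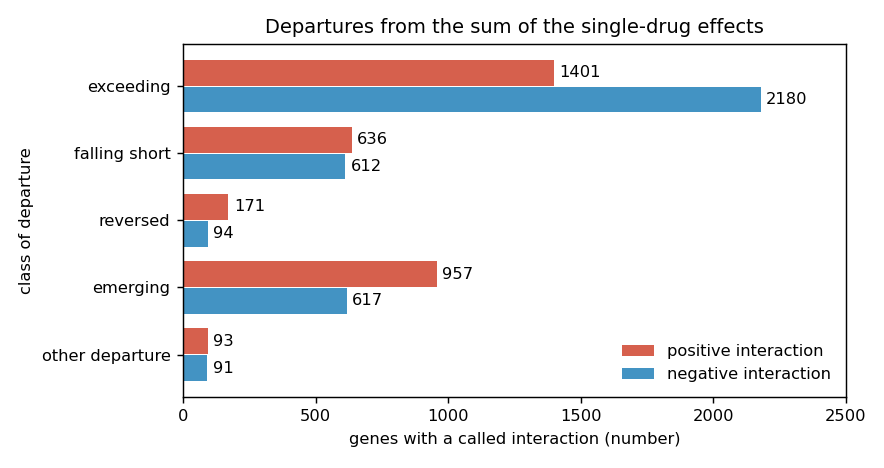
Number of genes with a called interaction (x axis) in each class of departure from the summed single-drug effects (y axis), split by the sign of the interaction. Genes that exceed the sum downward form the largest bar with 2180 genes, and the reversed class holds 171 positive and 94 negative genes.

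The median size of a called interaction was 0.602 on the log2 scale, and it was 0.835 among reversed genes, 0.631 among exceeding genes, 0.624 among emerging genes and 0.452 among genes that fell short. Large interactions were more often negative: 1316 negative and 626 positive calls reached 1 on the log2 scale. In 2430 called genes the CDK4/6i+ATRA libraries lay above all 9 other libraries, and in 2621 they lay below all of them. These counts cover called genes only. Over all tested genes CDK4/6i+ATRA itself raised 41.0% and lowered 40.7%, so no result is read from the counts. The log2 scale decides what counts as a departure. On the linear scale of CPM, 6340 of the called genes kept the sign of their departure and 512 did not, of which 490 were negative on the log2 scale and positive on the linear scale. Of the genes named here, AARS1, BCL2, CDCA7, CR1, E2F1, EIF4EBP1, P2RY13, PADI4, PHGDH and S100A8 had a negative interaction and a positive linear departure, VIM had the reverse, and others are given beside their lists. Where the single-drug losses together exceed the non-treated level, as for CDCA7 and E2F1, a positive linear departure was fixed in advance. Scaling by library size alone shifted the interaction of all genes by -0.32, so that list medians close to 0 depend on the scaling, and where that scaling changes the sign of a list's median, or the share of positive calls in a list by over 10 percentage points, its values are given beside it.

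Functions were described by lists of genes compiled by hand, 56 lists with 1612 distinct tested members in all, of which 1144 had a called interaction. The median interaction of all tested genes was -0.02 and serves as the background of the list medians. Group means are given ± SD and interactions ± SE, both from 3 libraries a group, and interactions are on the log2 scale.

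**Figure D2:**
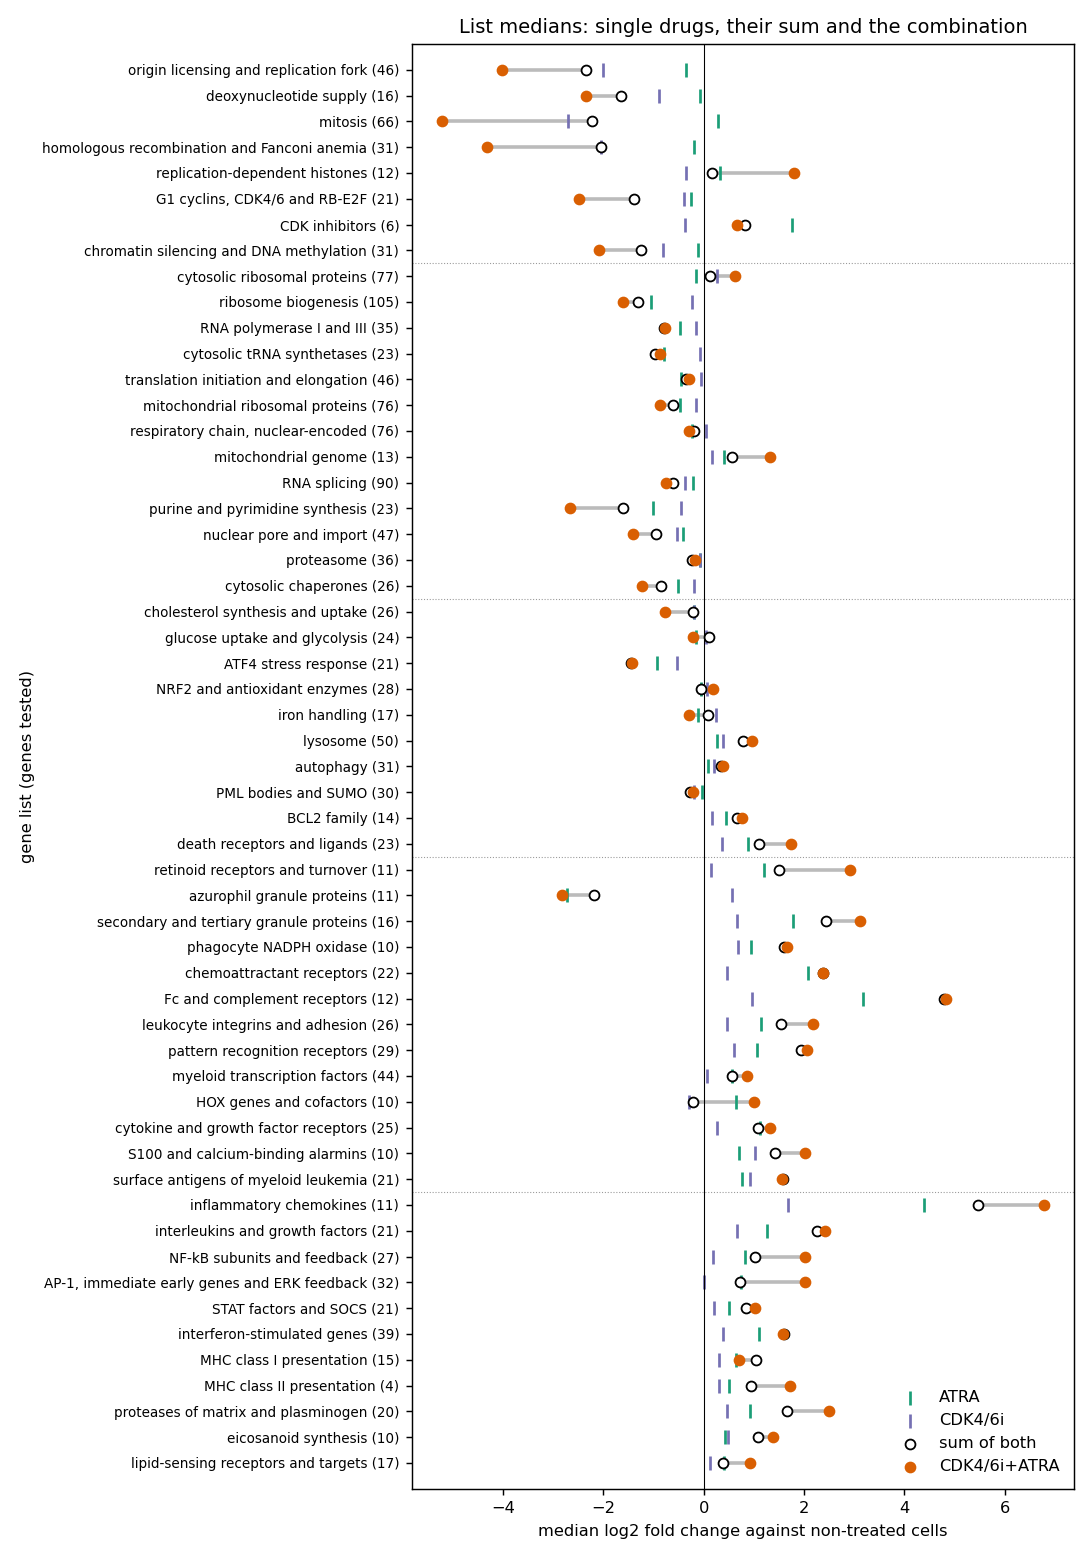
Median log2 fold change against non-treated cells (x axis) of the tested members of 55 of the gene lists (y axis, number of tested genes in parentheses) for ATRA and CDK4/6i (ticks), their sum (open circle) and CDK4/6i+ATRA (filled circle). The grey line between open and filled circles shows the departure, which is longest to the left for mitosis, where the sum is -2.22 and the combination -5.21.

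Genes of cell division exceeded the sum downward almost as a block. The mitosis list, which holds spindle, kinetochore and cytokinesis genes, had a called interaction in 65 of 66 members, all negative and all exceeding the sum, with a median of -2.44. On the linear scale of CPM, 62 of the 66 departures were negative. ATRA alone had raised 44 of the 66 members and lowered 7, with a median of 0.28, whereas CDK4/6i had lowered all 66, with a median of -2.71. CDK4/6i+ATRA brought the median to -5.21. TOP2A, the topoisomerase that untangles sister chromatids, had 781, 781 and 771 CPM without treatment, 1080, 1130 and 1129 after ATRA, 54.2, 61.2 and 59 after CDK4/6i and 12.9, 13.2 and 13.2 after both drugs. The level rose with ATRA alone, yet it was lowest by far when ATRA was added to CDK4/6i, and no groups overlapped. The interaction was -2.66 ± 0.08 (SE; adjusted p = 2.53e-31 by edgeR's quasi-likelihood test), against an expected level of 83.2 CPM. BUB1B, a kinase of the spindle checkpoint, had 1.47, 2.31 and 1.32 CPM with CDK4/6i+ATRA, compared with 119, 125 and 126 in the ATRA libraries, 23.3, 27.5 and 24.1 in the CDK4/6i libraries and 128, 136 and 132 in the non-treated ones. Its interaction was -3.77 ± 0.15 (SE; adjusted p = 1.61e-26 by edgeR's quasi-likelihood test). TTK, which loads that checkpoint on kinetochores, had the lowest interaction of the list, -3.94 ± 0.13, and stood at 2.5 CPM against an expected 38.6. PLK1 and CCNB1, the kinase and the cyclin that start mitosis, both had an interaction of -2.34.

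Short motifs were searched on both strands from 250 bases before to 50 bases after the transcription starts that RefSeq lists, of which 14048 belong to 9788 of the tested genes. The cell cycle homology region (CHR, TTTGAA), which the DREAM and MYB-MuvB complexes bind, was found at 44 of 74 starts of the mitosis list (59.5%), at 10.9% of the starts of tested genes and at 15.2% of all 35116 listed starts. The promoters of TOP2A and BUB1B, whose levels are given above, are shown as the 250 bases before the RefSeq start on GRCh38.p14, with CHR matches in capitals. Both genes were chosen for holding the motif there, after their values were seen, and members without a match there were passed over. BUB1B lies on the plus strand at chr15:40160819-40161068, with 1 match that begins 23 bases before the start. TOP2A lies on the minus strand at chr17:40417897-40418146, with 2 matches that begin 194 and 151 bases before it. A match is a description of the letters, and binding was not measured.
BUB1B: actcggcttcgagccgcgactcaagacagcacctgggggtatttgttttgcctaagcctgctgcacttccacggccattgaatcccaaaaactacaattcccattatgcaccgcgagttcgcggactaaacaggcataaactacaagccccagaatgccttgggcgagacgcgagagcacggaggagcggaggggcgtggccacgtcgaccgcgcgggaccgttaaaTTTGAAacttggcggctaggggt
TOP2A: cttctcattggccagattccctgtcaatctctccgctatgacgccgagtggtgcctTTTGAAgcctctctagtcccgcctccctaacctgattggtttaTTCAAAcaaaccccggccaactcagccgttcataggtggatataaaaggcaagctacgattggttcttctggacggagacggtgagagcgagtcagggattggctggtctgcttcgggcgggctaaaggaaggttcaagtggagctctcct

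Genes of DNA replication also mostly exceeded the sum downward on the log2 scale, but ATRA alone had lowered rather than raised most of them. Of the 46 genes of origin licensing and the replication fork, 44 exceeded the sum downward and 2 fell short of it with a positive interaction, and the median was -1.49. On the linear scale 29 of the 46 had a positive departure and 17 a negative one, and MCM2, MCM6, CDC6 and CDC45 were among the positive ones. ATRA alone had lowered 37 of them and CDK4/6i all 46, with medians of -0.34 and -2.0, so the summed effect of -2.34 was carried mainly by CDK4/6i, and CDK4/6i+ATRA reached -4.01. MCM2, a subunit of the replicative helicase, had 561, 565 and 544 CPM in the 3 non-treated libraries, 189, 191 and 188 under CDK4/6i, 380, 390 and 391 under ATRA and 18.2, 20.8 and 21.4 under the combination. The 4 groups were stepwise lower without overlap, and the combined level was far under the expected 132 CPM. Its interaction was -2.7 ± 0.07 (SE; adjusted p = 2.92e-34 by edgeR's quasi-likelihood test). CDC6, which loads the helicase on origins, and CDC45, which activates it, had interactions of -2.83 ± 0.18 and -2.85 ± 0.22. GINS3, another helicase subunit, went against the list, with 7.01 ± 0.736 CPM after CDK4/6i alone and 9.65 ± 0.733 after both drugs, and an interaction of 0.51.

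E2F motifs (TTTCGCGC, TTTGGCGC or TTTCCCGC, whose matches can overlap each other on opposite strands) were found at 20 of 50 starts of the replication list (40.0%), at 4.27% of the starts of tested genes and at 2.74% of all listed starts. RFC3, a clamp loader subunit, and MCM6, a helicase subunit, are shown as called members with large negative interactions that hold the motif before the start. The choice was made after their values were seen, and not all chromosomes were considered for it. RFC3 had an interaction of -2.63 ± 0.09, with 189 CPM in non-treated cells and 8.19 with CDK4/6i+ATRA, and MCM6 had -2.59 ± 0.08, with 492 and 13.2 CPM. The sequence of RFC3 is the plus strand of chr13:33817899-33818148, with 1 match that begins 55 bases before the start. That of MCM6 is the minus strand of chr2:135876444-135876693, with 4 matches in 2 overlapping pairs, which begin between 152 and 86 bases before it.
RFC3: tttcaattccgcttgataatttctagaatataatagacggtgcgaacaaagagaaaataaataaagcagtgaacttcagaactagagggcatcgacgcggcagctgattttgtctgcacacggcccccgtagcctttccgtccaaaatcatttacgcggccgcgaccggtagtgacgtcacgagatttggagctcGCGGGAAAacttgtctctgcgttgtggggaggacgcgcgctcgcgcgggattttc
MCM6: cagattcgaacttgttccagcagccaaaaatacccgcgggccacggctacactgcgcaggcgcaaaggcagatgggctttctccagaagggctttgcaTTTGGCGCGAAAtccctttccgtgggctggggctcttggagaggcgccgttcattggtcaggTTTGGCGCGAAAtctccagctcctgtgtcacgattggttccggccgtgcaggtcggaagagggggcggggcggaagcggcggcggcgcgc

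Of 31 genes of homologous recombination and the Fanconi anemia pathway, 28 exceeded the sum downward, and the median was -1.64. Their linear departures were 11 positive and 20 negative. POLQ, the polymerase of end joining, had an interaction of -3.72 ± 0.21, and BRCA1, which starts repair by recombination, of -2.36 ± 0.10. Of 16 genes of deoxynucleotide supply, 9 were negative and 3 positive (median -0.95, and by library size alone 0 positive and 13 negative). The linear departures were 8 positive and 8 negative. RRM2, the regulated subunit of ribonucleotide reductase, fell from 16.9 ± 1.71 CPM with CDK4/6i to 9.93 ± 1.46 with CDK4/6i+ATRA although ATRA alone raised it to 619, an interaction of -1.26 ± 0.10. RRM2B, the form used outside S phase, exceeded the sum upward (0.34 ± 0.09). Of 31 genes of chromatin silencing and DNA methylation, 23 were negative and 7 positive (median -0.62, and by library size alone 2 positive and 24 negative). The linear departures were 11 positive and 20 negative. CDCA7, which helps to recruit a chromatin remodeler for DNA methylation, had 76.9, 81.2 and 82.6 CPM after ATRA and 49.2, 51.8 and 51.7 after CDK4/6i, beside 209, 209 and 198 in non-treated cells and 0.824, 1.25 and 0.578 after the combined treatment. Both drugs lowered it alone, without overlap, and the combined level was 0.0444 times the expected 19.9 CPM. The chromatin gene HMGA1, an architectural protein, was reversed, with 1139 and 1071 CPM with the single drugs, under the 1314 of non-treated cells, and 2002 with CDK4/6i+ATRA.

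Among 21 genes of G1 cyclins, CDK4/6 and the RB-E2F axis, 14 interactions were negative and 5 positive, with a median of -0.93 (by library size alone 2 positive and 15 negative). CCNE1, the cyclin that acts after CDK4/6 at the entry into S phase, had 40.4, 38.5 and 39.5 CPM without treatment, 27.3, 31.8 and 31 after ATRA, 19.2, 20.3 and 20.3 after CDK4/6i and 2.01, 0.980 and 1.73 after both drugs. Relative to all genes the median was -0.90, and -0.59 with at least 10 counts in every library. Its 4 groups did not overlap, and the combined level was 0.104 times the expected 15.2 CPM. E2F1, the founding factor of the family, had an interaction of -2.68 ± 0.25. CCND2, a D-type cyclin, was lowered by ATRA to 106 ± 2.55 CPM and raised by CDK4/6i to 370 ± 8.43, from 271 ± 8.08 in non-treated cells. With both drugs it stood at 69.3 ± 6.71 CPM, under either drug alone, whereas CCND1, another D-type cyclin, exceeded the sum upward (0.55 ± 0.06). RBL2, the pocket protein of resting cells, was raised by the sum and lowered by the combination (-0.69 ± 0.06). Of 6 tested CDK inhibitors, 3 had a called interaction and the median was -0.02. CDKN2B, which blocks CDK4/6, exceeded the sum upward at 53.2 ± 2.28 CPM against an expected 12.8. CDKN2D, a relative, fell short of it at 40.4 ± 1.81 against 56.2.

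Of 58 replication-dependent histone genes, 12 passed the filter on low counts. Some of these had few counts outside the CDK4/6i+ATRA libraries and could pass only where they were high, so no count or median is read from them. H2BC12, an H2B gene, had 55.9, 57.5 and 62.1 CPM with CDK4/6i+ATRA, compared with 11, 8.79 and 9.38 in the ATRA libraries, 17, 14.3 and 15.4 in the CDK4/6i libraries and 8.04, 7.2 and 6.3 in the non-treated ones. The 4 groups were stepwise higher without overlap, with CDK4/6i above ATRA, and its interaction was 1.47 ± 0.15. These transcripts mostly lack poly(A) tails and are near-identical copies, so their counts are uncertain.

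Of 77 cytosolic ribosomal protein genes, 73 were positive and 1 negative, with a median of 0.50 (0.18 by library size alone, with the same direction). The linear departures were 74 positive and 3 negative. ATRA alone had lowered 59 and raised 0, CDK4/6i had raised 69 and lowered 0, and the summed median was 0.12, so that 40 of the positive genes were of the emerging class, 29 exceeded the sum and 4 were reversed. RPLP0, a protein of the ribosomal stalk, had 2729, 2730 and 2633 CPM in the 3 non-treated libraries, 3117, 2991 and 2983 under CDK4/6i, 2490, 2418 and 2527 under ATRA and 3528, 3954 and 4139 under the combination. ATRA libraries were lowest, the CDK4/6i+ATRA libraries were highest, and no groups overlapped. The interaction was 0.48 ± 0.07 (SE; adjusted p = 2.8e-08 by edgeR's quasi-likelihood test), a departure of 1.39 times the expected level. RPS27, of the small subunit, had the largest called excess upward of the named members (0.76 ± 0.06, with 1788 ± 118 CPM against an expected 1059), and RPS26 was the negative exception (-0.19 ± 0.06). Ribosomal protein genes have many processed copies in the genome that can share reads.

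Of 105 ribosome biogenesis genes, 51 were negative, 11 positive and 43 not called, with a median of -0.22 (by library size alone 4 positive and 90 negative). On the linear scale 67 departures were positive, with NCL, NOP56 and TCOF1 among them, and 38 negative. ATRA alone had lowered 99 of them (median -1.05) and CDK4/6i 70 (median -0.23). NCL, the main nucleolar protein, had 992, 1011 and 1068 CPM after ATRA and 1808, 1785 and 1789 after CDK4/6i, beside 2442, 2541 and 2349 in non-treated cells and 433, 407 and 415 after the combined treatment. The groups did not overlap, and the CDK4/6i+ATRA libraries held 0.556 times the expected level, with an interaction of -0.85 ± 0.06. TCOF1, which links ribosomal DNA transcription to processing, had the most negative value (-1.68 ± 0.08), and NOP56, a core protein of box C/D particles, had -0.96 ± 0.07. RRP12, which exports ribosomal subunits, went the other way. Its level with ATRA was 93.1 ± 4.93 CPM, and with CDK4/6i+ATRA it was 173 ± 5.26, overlapping non-treated cells (179 ± 9.02), an interaction of 0.87 ± 0.06. PPAN, which was also positive (1.05 ± 0.15), overlaps a readthrough gene, so its reads are uncertain.

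The E-box CACGTG, which MYC and MAX bind, was found at 39 of 100 starts of the ribosome biogenesis list (39.0%), at 9.59% of the starts of tested genes and at 7.26% of all listed starts. Not all chromosomes were considered in choosing an example. DDX54, a nucleolar helicase, is shown as a called member with a large negative interaction (-0.89 ± 0.07) that holds the motif before the start. It was chosen after its values were seen. Its level was 165 CPM in non-treated cells and 43.3 with CDK4/6i+ATRA. The sequence is the minus strand of chr12:113185479-113185728, and the match begins 61 bases before the start.
DDX54: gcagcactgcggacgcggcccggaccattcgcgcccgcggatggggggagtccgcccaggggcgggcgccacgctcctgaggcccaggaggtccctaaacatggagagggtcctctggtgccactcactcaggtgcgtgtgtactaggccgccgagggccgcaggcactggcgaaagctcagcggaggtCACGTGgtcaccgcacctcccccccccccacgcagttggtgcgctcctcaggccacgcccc

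**Figure D3:**
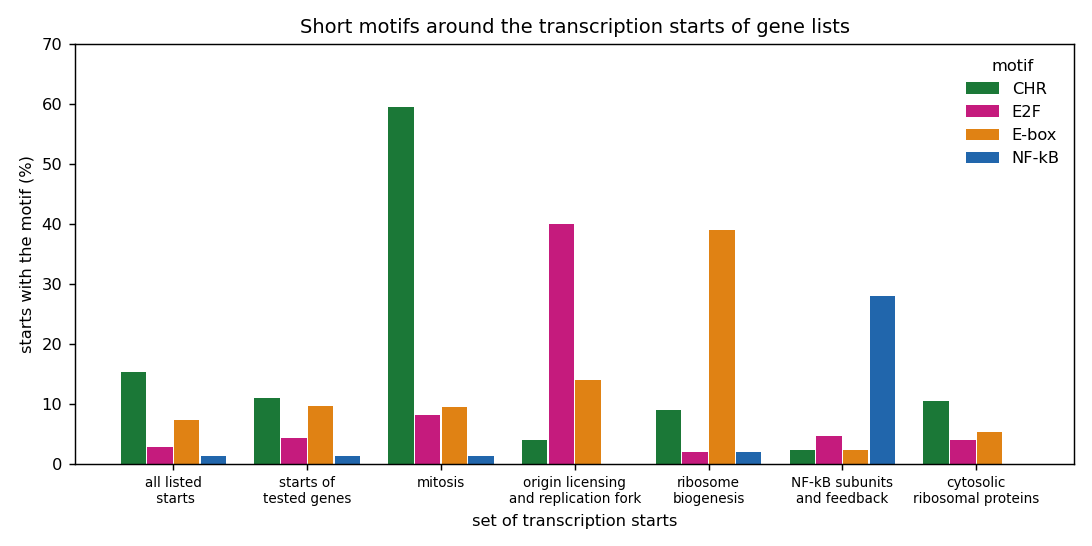
Share of listed transcription starts that hold each motif between 250 bases before and 50 bases after the start (y axis, percent) for all listed starts, the starts of tested genes and 5 gene lists (x axis). CHR reaches 59.5% in the mitosis list, E2F 40.0% in the replication list, the E-box 39.0% in the ribosome biogenesis list and NF-kB 27.9% in the NF-kB list.

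Of 35 subunits and factors of RNA polymerases I and III, 13 were negative and 2 positive (median -0.15, and by library size alone 0 positive and 27 negative), and of 23 cytosolic tRNA synthetases and their cofactors, 10 were negative and 6 positive (median -0.05, and by library size alone 2 positive and 18 negative). The linear departures were 16 positive and 19 negative for the polymerases and 13 positive and 10 negative for the synthetases. AARS1, for alanine, exceeded the sum downward (-1.05 ± 0.08) and WARS1, for tryptophan, exceeded it upward (1.25 ± 0.06), from 179 CPM in non-treated cells to 649 with CDK4/6i+ATRA. Of 46 translation factors, 15 were positive and 12 negative, with a median of 0.05 (-0.27 by library size alone, with 6 positive and 30 negative). EIF1, which selects start codons, emerged at 680 ± 10.03 CPM, above all libraries of the other groups, whose means lay between 313 and 344 CPM. EIF4EBP1 and EEF2K, which restrain initiation and elongation, exceeded the sum downward (-1.12 ± 0.14 and -1.23 ± 0.12), and EEF2K is also listed on an alternate contig. Of 90 splicing genes, 40 were negative and 13 positive (median -0.10, and by library size alone 1 positive and 78 negative), with LSM4, a protein of the U6 particle, at -1.11 ± 0.06. Of their linear departures 48 were positive and 42 negative. Of 47 genes of the nuclear pore and import, 29 were negative and 8 positive (median -0.38, and by library size alone 3 positive and 38 negative), led by the exportin CSE1L (-2.06 ± 0.07), while the importin KPNA4 was reversed upward (0.85 ± 0.06). Their linear departures were 22 positive and 25 negative. Of 36 proteasome genes, 19 were not called, 10 were positive and 7 negative, with a median of 0.02 (-0.30 by library size alone, with 0 positive and 28 negative, and 8 and 9 with the size factors of DESeq2). Of 26 chaperones and partners, 19 were negative and 4 positive (median -0.35, and by library size alone 1 positive and 21 negative), and HSPE1 and HSPD1, the pair of mitochondrial chaperonins, had -1.74 ± 0.11 and -1.37 ± 0.06.

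All 13 genes of the mitochondrial genome were positive, 12 exceeding the sum and 1 emerging, with a median of 0.70 (0.38 by library size alone). COX3, of the terminal oxidase, had 2305, 2072 and 3050 CPM without treatment, 3161, 3696 and 2597 after ATRA, 2731, 2527 and 2333 after CDK4/6i and 4496, 6161 and 6294 after both drugs. The CDK4/6i+ATRA libraries were above all others, but the replicates spread widely and the other 3 groups overlapped. Its interaction was 0.81 ± 0.13. ND1, of complex I, had 0.89 ± 0.13. The nuclear genes of the respiratory chain had 31 negative and 16 positive interactions among 76 (median -0.13, and by library size alone 1 positive and 60 negative), and mitochondrial ribosomal proteins 42 negative and 10 positive among 76 (median -0.22, and by library size alone 1 positive and 61 negative). MRPL12 had -1.14 ± 0.06, and MRPS6, which ATRA raised from 23.9 to 80.1 CPM, exceeded the sum upward at 224 CPM (2.06 ± 0.09). Nuclear copies of mitochondrial DNA can share reads with these genes.

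Of 23 genes of purine and pyrimidine synthesis, 21 exceeded the sum downward, with a median of -1.08, while ATRA had lowered 22 and CDK4/6i 19 (medians -1.0 and -0.45). CAD, whose protein carries out the opening steps of pyrimidine synthesis, had 19, 19.2 and 17.7 CPM with CDK4/6i+ATRA, compared with 96.6, 104 and 105 in the ATRA libraries, 253, 250 and 240 in the CDK4/6i libraries and 356, 320 and 341 in the non-treated ones. On the linear scale 12 departures were positive, those of CAD, PPAT and MTHFD1L among them, and 11 negative. The groups did not overlap, and the interaction was -2.0 ± 0.08 (SE; adjusted p = 1.52e-27 by edgeR's quasi-likelihood test). PPAT, the committing enzyme of purine synthesis, and MTHFD1L, a mitochondrial folate enzyme, had -1.61 ± 0.10 and -2.11 ± 0.13. SHMT2, also a mitochondrial folate enzyme, fell short of the sum instead (0.19 ± 0.06, and -0.13 by library size alone). Among genes with a mean of at least 5 CPM and no group at the floor, 2 other mitochondrial genes stood among the 4 most negative interactions of the exceeding class. SLC25A10, a dicarboxylate carrier, had 126, 119 and 122 CPM in the 3 non-treated libraries, 95.2, 91.9 and 93.3 under CDK4/6i, 48.9, 48.7 and 49 under ATRA and 1.65, 1.96 and 1.82 under the combination. HPDL, which takes part in making the ring precursor of coenzyme Q, had 14.8, 15.1 and 15.2 CPM after ATRA and 54.5, 58.1 and 50.7 after CDK4/6i, beside 57.3, 62.2 and 59.3 in non-treated cells and 0.733, 0.712 and 0.908 after the combined treatment. ATRA lowered both, CDK4/6i lowered SLC25A10 less and HPDL not detectably, and the CDK4/6i+ATRA libraries lay far under the rest, with interactions of -4.36 ± 0.12 and -4.11 ± 0.19.

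Of 24 genes of glucose uptake and glycolysis, 12 were negative and 9 positive (median -0.18, and by library size alone 7 positive and 15 negative). The median was -0.09 without genes also listed on alternate contigs. LDHA, which reduces pyruvate to lactate, exceeded the sum downward at 137 ± 5.66 CPM against an expected 436 (-1.67 ± 0.06), although it is also listed on an alternate contig. SLC16A3, a transporter that exports lactate, exceeded it upward at 2013 ± 88.2 CPM against 701 (1.52 ± 0.06). HK3, the hexokinase of myeloid cells, had no called interaction, with 398 ± 9.57 CPM against an expected 425. Of 26 genes of cholesterol synthesis and uptake, 17 were negative and 3 positive (median -0.41). EBP, an isomerase late in the pathway, had -1.34 ± 0.06, whereas INSIG1, which holds back the sterol-sensing factor SREBP, emerged at 290 ± 7.24 CPM from 90.8 ± 9.91 (1.72 ± 0.07). STARD4, a sterol carrier, exceeded the sum upward (1.63 ± 0.12). The CCAAT box (CCAAT) was found at 19 of 25 starts of the cholesterol list (76.0%) and at 34.9% of the starts of tested genes. It is not particular to this list, as it was found at 73.0% of the starts of the mitosis list and 56.0% of those of the replication list. Of 17 lipid-sensing receptors and their targets, 7 were positive and 4 negative, with a median of 0.49 (by library size alone 0.17, with 5 positive and 7 negative). Without the 3 genes with a group at the floor the median was 0.24, and with at least 10 counts in every library it was 0.12 relative to all genes. ABCA1, which exports cholesterol, exceeded the sum upward (0.73 ± 0.14), and SCARB1, a receptor for high-density lipoprotein, exceeded it downward (-1.93 ± 0.10).

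Of 21 ATF4 stress response genes, 12 were positive and 6 negative, with a median of 0.27 (-0.05 by library size alone), and 8 of the positive ones fell short of a downward sum. SLC3A2, the heavy chain of amino acid transporters, had 83.3 and 109 CPM with the single drugs and 120 with both, against an expected 57.7 (1.06 ± 0.06). DDIT4, an inhibitor of mTOR complex 1, had 36.4, 36 and 37.6 CPM without treatment, 118, 115 and 114 after ATRA, 107, 104 and 107 after CDK4/6i and 99.2, 93.8 and 91 after both drugs. Each drug alone raised it, and the CDK4/6i+ATRA libraries lay below those of either single drug. The interaction was -1.82 ± 0.07 (SE; adjusted p = 3.9e-28 by edgeR's quasi-likelihood test), against an expected 334 CPM. PHGDH, which starts serine synthesis, exceeded the sum downward (-2.19 ± 0.10). Of 28 NRF2 target and antioxidant genes, 17 were positive and 7 negative, with a median of 0.27 (-0.04 by library size alone, with 7 positive and 12 negative). NQO1, a quinone reductase, had 133, 148 and 152 CPM with CDK4/6i+ATRA, compared with 29.7, 26.7 and 28.1 in the ATRA libraries, 26.9, 24.2 and 23.1 in the CDK4/6i libraries and 26.3, 26.2 and 24.4 in the non-treated ones. The 9 other libraries stayed between 23.1 and 29.7 CPM, and every CDK4/6i+ATRA library exceeded them (2.4 ± 0.09). SRXN1, which repairs peroxiredoxins, exceeded the sum upward (1.91 ± 0.06), CAT, the catalase, exceeded it downward (-1.44 ± 0.06), and HMOX1, the heme oxygenase, was not called (20.9 ± 2.28 CPM against an expected 17.4).

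Of 17 iron genes, 8 were negative and 2 positive (median -0.35). TFRC, the receptor that takes up transferrin, had 1860, 1809 and 1685 CPM in the 3 non-treated libraries, 1540, 1519 and 1504 under CDK4/6i, 419, 471 and 484 under ATRA and 140, 150 and 144 under the combination. STEAP3, the reductase that acts with it, had 0.867 ± 0.457 CPM against an expected 7.49. Both exceeded the sum downward, with interactions of -1.43 ± 0.07 and -3.08 ± 0.25. FTH1 and FTL, the ferritin chains, were the 2 positive genes (1.76 ± 0.06 and 0.49 ± 0.07), and both have processed copies that can share reads.

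Of 50 lysosome genes, 26 were positive and 15 negative, with a median of 0.24 (-0.08 by library size alone, with 13 positive and 21 negative). Most of the positive genes, 20, exceeded the sum and most of the negative ones, 11, fell short of it. PSAP, the precursor of activators of lipid breakdown, had 2380 ± 63.9 CPM against an expected 1290 (0.88 ± 0.06). ASAH1, the acid ceramidase, had 40.8 ± 0.701 against 70.5 (-0.79 ± 0.09), GLA, the alpha-galactosidase, was reversed downward (-1.11 ± 0.10), and CTSD, a protease, was not called (4458 CPM against 4513). Of 31 autophagy genes, 17 were positive and 5 negative, with a median of 0.21 (-0.11 by library size alone, with 6 positive and 12 negative). TFEB, the factor that switches on lysosome genes, had 14, 13.8 and 14.5 CPM after ATRA and 1.4, 2.32 and 1.46 after CDK4/6i, beside 1.98, 1.38 and 2.14 in non-treated cells and 59.1, 65 and 56.6 after the combined treatment. It was raised by ATRA and not detectably by CDK4/6i, and CDK4/6i+ATRA exceeded both (2.21 ± 0.25). Of 30 genes of PML bodies and SUMO, 11 were positive, 5 negative and 14 not called, with a median of 0.11 (-0.21 by library size alone, with 1 positive and 15 negative). PML, the scaffold of these bodies, had 92.6 ± 4.21 CPM without treatment, 91.1 ± 4.52 after ATRA, 102 ± 2.47 after CDK4/6i and 82.4 ± 2.92 after both drugs (n = 3), an emerging interaction of -0.29 ± 0.07. HIRA, a histone H3.3 chaperone, exceeded the sum downward (-0.46 ± 0.07), and ATRX, a remodeler that deposits H3.3 with DAXX, was not called (137 CPM against an expected 132).

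Of 14 BCL2 family genes, 6 were positive and 4 negative, with a median of 0.20 (-0.12 by library size alone, with 3 positive and 5 negative). BCL2 and MCL1, which both protect cells from death, moved oppositely: BCL2 stood at 6.03 ± 0.620 CPM against an expected 18, and MCL1 at 1856 ± 24.9 against 776. PMAIP1 (NOXA), which opposes MCL1, had 18.7, 16 and 15.8 CPM without treatment, 73.9, 79.5 and 70.1 after ATRA, 9.63, 10.4 and 9.76 after CDK4/6i and 197, 213 and 227 after both drugs. ATRA raised it and CDK4/6i lowered it, and the combined level was above both (2.27 ± 0.11). BID, which links death receptors to mitochondria, was reversed upward (1.31 ± 0.07). Of 23 death receptors and ligands, 7 were positive and 3 negative, with a median of 0.18 (-0.14 by library size alone, with 3 positive and 7 negative). TNFSF13B (BAFF), a survival factor for B cells, emerged downward (-2.34 ± 0.08), and TNFRSF10D, a decoy receptor, exceeded the sum upward (1.6 ± 0.20).

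**Figure D4:**
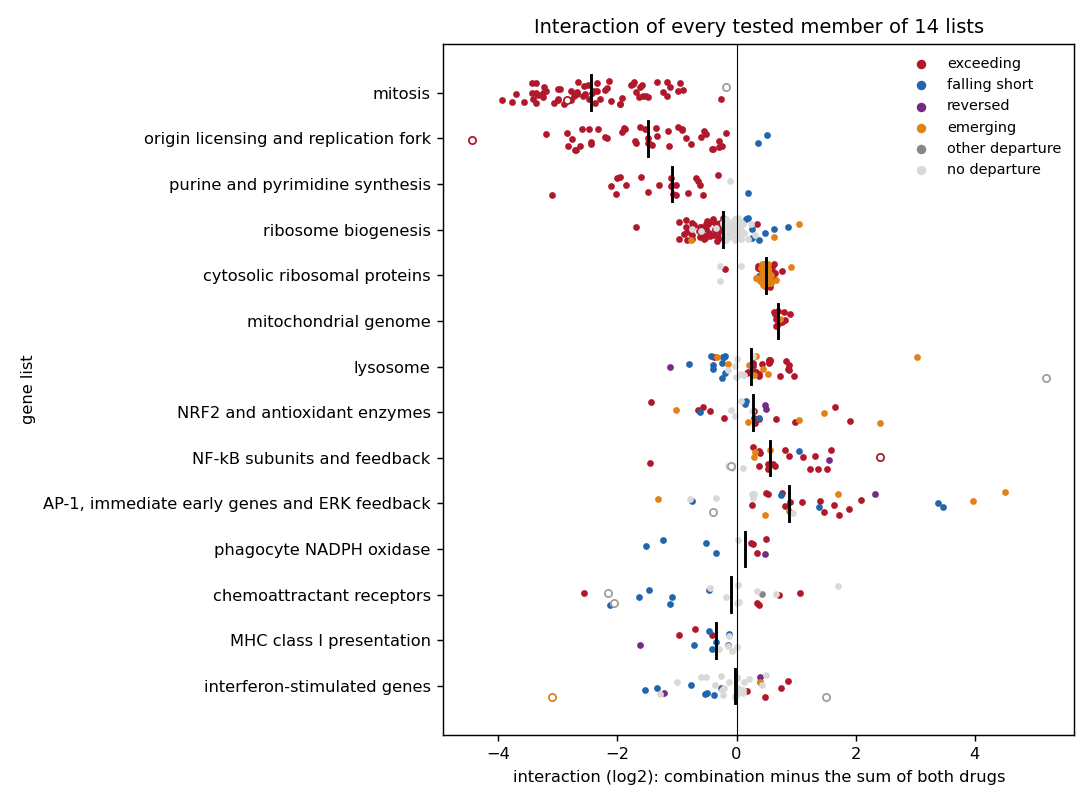
Interaction (x axis, log2) of every tested member of 14 of the lists (y axis), coloured by class, with the list median as a black line and open points for genes with a group at the floor of 3 counts. Mitosis members lie between -3.94 and -0.18, cytosolic ribosomal proteins between -0.28 and 0.91, and the lists of myeloid function at the bottom hold many blue points of genes that fell short of the sum.

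Of 11 tested genes of retinoid receptors and turnover, 4 were positive and 1 negative, with a median of 0.77 (by library size alone 0.45, with 4 positive and 3 negative). Without the 3 of them that had a group at the floor the median was 0.45. RARA, a receptor for ATRA, had 181, 187 and 185 CPM with CDK4/6i+ATRA, compared with 108, 100 and 99.7 in the ATRA libraries, 47.8, 46.9 and 45 in the CDK4/6i libraries and 43.7, 43.2 and 46 in the non-treated ones. It was raised by ATRA and not detectably by CDK4/6i, and the combined level exceeded both (0.77 ± 0.07). NRIP1, a corepressor of nuclear receptors, had 1.9 ± 0.08, and RDH11, a retinol dehydrogenase, 1.27 ± 0.09.

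Several myeloid effector genes raised by both drugs fell short of the sum. Of the 10 subunits of the phagocyte NADPH oxidase, all were raised by ATRA and 9 by CDK4/6i, and 4 fell short, 4 exceeded the sum and 1 was reversed, with a median of 0.13 (-0.19 by library size alone, with 2 positive and 5 negative). CYBB, the catalytic subunit, had 130, 129 and 135 CPM in the 3 non-treated libraries, 453, 435 and 455 under CDK4/6i, 2097, 2035 and 2099 under ATRA and 2956, 2974 and 3109 under the combination. Leaving out the 1 gene also listed on an alternate contig gave a median of 0.25. The 4 groups were in steps without overlap, and the highest level, with CDK4/6i+ATRA, was 0.425 times the expected 7081 CPM. The interaction was -1.23 ± 0.06 (SE; adjusted p = 3.45e-23 by edgeR's quasi-likelihood test), while the departure on the linear scale was positive, at 620 CPM. NCF1, a cytosolic subunit with near-identical pseudogenes, had 1766, 1727 and 1714 CPM after ATRA and 106, 104 and 115 after CDK4/6i, beside 43, 38 and 41.9 in non-treated cells and 1610, 1554 and 1618 after the combined treatment. Its CDK4/6i+ATRA libraries lay under those of ATRA alone (-1.52 ± 0.07). CYBA, the small membrane subunit, exceeded the sum (0.5 ± 0.05).

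Of 22 chemoattractant receptors, 7 were negative, 6 of them falling short of the sum, and 5 positive, with a median of -0.09 (by library size alone 1 positive and 11 negative). CXCR4, the receptor for the bone marrow chemokine CXCL12, had 141, 135 and 141 CPM without treatment, 372, 366 and 369 after ATRA, 173, 188 and 181 after CDK4/6i and 169, 175 and 174 after both drugs. The median was 0.02 without genes with a group at the floor. It was highest with ATRA alone, and CDK4/6i+ATRA overlapped CDK4/6i alone (-1.47 ± 0.05 (SE; adjusted p = 7.29e-28 by edgeR's quasi-likelihood test)). P2RY13, a nucleotide receptor, fell short at 25.4 ± 1.6 CPM against 79.7, FPR2, a formyl peptide receptor, exceeded the sum (0.71 ± 0.06), and P2RY2, another nucleotide receptor, exceeded it downward (-2.56 ± 0.10). Of 12 Fc and complement receptors, 2 were positive and 3 negative, with a median of 0.00 (-0.32 by library size alone, with 1 positive and 5 negative). CR1, a complement receptor, had 639 ± 19.5 CPM against an expected 1256, and FCER1G, the signaling chain of Fc receptors, had 368 ± 11.7 against 177. Of 29 pattern recognition receptors and inflammasome genes, 6 were positive, 7 negative and 16 not called, with a median of 0.15 (-0.17 by library size alone, with 3 positive and 11 negative, and 5 and 9 with the size factors of DESeq2). TLR4, the sensor of endotoxin, fell short (-0.59 ± 0.07) and NLRC4, an inflammasome sensor, exceeded the sum (1.22 ± 0.30).

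Of 11 tested azurophil granule genes, 6 were negative and 3 positive (median -0.20). MPO, the peroxidase that marks promyelocytes, had 25.4, 24.5 and 33.8 CPM with CDK4/6i+ATRA, compared with 268, 288 and 322 in the ATRA libraries, 3539, 3447 and 3410 in the CDK4/6i libraries and 6658, 6543 and 6329 in the non-treated ones. The linear departures were 6 positive and 5 negative. The median was -0.09 without the 1 gene with a group at the floor. Both drugs lowered it, the groups did not overlap, and the combined level was 0.179 times the expected 156 CPM (-2.47 ± 0.09 (SE; adjusted p = 7.13e-28 by edgeR's quasi-likelihood test)). Its linear departure was positive, at 2780 CPM. The single-drug losses together exceed the non-treated level of MPO, so this sign was fixed in advance. RNASE2, a granule ribonuclease, had an interaction of -3.76 ± 0.17. LYZ, lysozyme, had 25.4, 24.8 and 22.4 CPM in the 3 non-treated libraries, 51.9, 46.2 and 49.7 under CDK4/6i, 7.45, 8.74 and 7.89 under ATRA and 41.2, 36.6 and 42.8 under the combination. It was lowered by ATRA and raised by CDK4/6i, and it was reversed upward with both (1.29 ± 0.12). Of 16 secondary and tertiary granule genes, 5 were negative, 1 was positive and 10 were not called (median -0.25). The median was -0.67 without the 3 genes with a group at the floor, and relative to all genes it ranged from -0.44 without non-treated library 1 to -0.02 without CDK4/6i library 2. CEACAM6, an adhesion protein of granules, had -3.88 ± 0.29, and QPCT, a glutaminyl cyclase, was the positive one (1.47 ± 0.17). Of 10 S100 and calcium-binding alarmins, 2 were positive and 3 negative (median -0.23, and by library size alone 1 positive and 5 negative), with S100A8 falling short at 1843 ± 78.5 CPM against an expected 3322. The median of this list was -0.38 without genes with a group at the floor.

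Of 44 myeloid transcription factors, 15 were positive and 16 negative, with a median of 0.00 (-0.31 by library size alone, with 9 positive and 24 negative). The median was -0.14 without genes with a group at the floor. MYB, which keeps progenitors cycling, had 74.5, 71.9 and 74.4 CPM after ATRA and 364, 376 and 370 after CDK4/6i, beside 336, 347 and 338 in non-treated cells and 9.89, 11 and 12.7 after the combined treatment. CDK4/6i alone did not lower it, and the combined level was below that of ATRA without overlap (-2.83 ± 0.08 (SE; adjusted p = 2.37e-32 by edgeR's quasi-likelihood test)). GATA2, a factor of stem and progenitor cells, had -1.28 ± 0.08. CEBPE, which drives the later steps of granulocyte maturation, had 165, 168 and 175 CPM without treatment, 423, 398 and 406 after ATRA, 191, 198 and 201 after CDK4/6i and 281, 283 and 289 after both drugs. It was highest with ATRA alone, and the CDK4/6i+ATRA libraries lay between those of ATRA and CDK4/6i (-0.74 ± 0.05). ZEB2, a repressor used in monocyte lineages, and HIF1A, the hypoxia factor, exceeded the sum upward (2.16 ± 0.06 and 1.0 ± 0.09), and MXD1, which competes with MYC for MAX, was not called (159 CPM against an expected 157). Of 10 HOX genes and cofactors, 4 were positive and 1 negative, with a median of 0.27 (-0.04 by library size alone), and HOXA13 was the negative one (-2.82 ± 0.34).

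Of 25 cytokine and growth factor receptors, 11 exceeded the sum upward and 6 fell short of an upward sum, with a median of 0.06 (-0.26 by library size alone, with 7 positive and 12 negative). IL2RG, the chain shared by several interleukin receptors, had 206 ± 12.6 CPM against 71 (1.53 ± 0.08). CSF3R, the receptor for granulocyte colony-stimulating factor, had 116 ± 10.1 against 179 (-0.62 ± 0.07), and KIT, the receptor for stem cell factor, emerged downward (-1.65 ± 0.32). Of 26 leukocyte integrins and adhesion genes, 11 were positive and 8 negative, with a median of 0.31 (-0.01 by library size alone, with 7 positive and 10 negative). ITGA4, the alpha chain of VLA-4, had 501, 482 and 478 CPM with CDK4/6i+ATRA, compared with 222, 206 and 217 in the ATRA libraries, 369, 374 and 369 in the CDK4/6i libraries and 375, 386 and 392 in the non-treated ones. ATRA alone lowered it, and CDK4/6i+ATRA raised it above all other libraries (1.23 ± 0.05 (SE; adjusted p = 2e-25 by edgeR's quasi-likelihood test)). ITGA5, of the fibronectin receptor, exceeded the sum upward (1.92 ± 0.07), SELPLG, the ligand of P-selectin, exceeded it downward (-3.11 ± 0.13), and ITGAX, of complement receptor 4, was not called (138 CPM against an expected 141). Of 21 surface antigens of myeloid leukemia, 6 were positive and 9 negative (median -0.06). The median was -0.33 without the 6 genes with a group at the floor and -0.19 without the gene also listed on an alternate contig. CD86, a costimulator of T cells, exceeded the sum upward at 82.9 ± 1.2 CPM against 19, and CD83, a marker of mature dendritic cells, was reversed upward (2.07 ± 0.10).

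Of 32 AP-1, immediate early and ERK feedback genes, 23 were positive and 2 negative, with a median of 0.88 (by library size alone 0.57, with 18 positive and 4 negative). The median effect of CDK4/6i alone was 0.00 and that of ATRA 0.74, against 2.03 with CDK4/6i+ATRA. SPRY4, a feedback inhibitor of the ERK pathway, had 5.16, 4.26 and 4.56 CPM in the 3 non-treated libraries, 3.31, 4.27 and 4.74 under CDK4/6i, 6.77, 5.3 and 5.35 under ATRA and 112, 113 and 118 under the combination. The single-drug libraries stayed close to those of non-treated cells, and every CDK4/6i+ATRA library was far above them. The interaction was 4.5 ± 0.18 (SE; adjusted p = 2.92e-26 by edgeR's quasi-likelihood test), the third largest of the emerging class among the genes considered for naming. JUN, an AP-1 subunit, had 38.5, 31.5 and 27.2 CPM after ATRA and 5.44, 5.25 and 4.74 after CDK4/6i, beside 13.3, 9.52 and 11.8 in non-treated cells and 238, 220 and 218 after the combined treatment. ATRA raised it and CDK4/6i lowered it without overlap, and the combined level was 15.6 times the expected one (3.97 ± 0.15). FOS and FOSL2, its partners, had 1.63 ± 0.21 and 2.09 ± 0.08, and DUSP5 and DUSP6, phosphatases that act on ERK, 1.88 ± 0.13 and 0.52 ± 0.06. SPRY1, a relative of SPRY4, emerged downward (-1.32 ± 0.15), and FOSB, a FOS relative, fell short (-0.74 ± 0.16).

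Of 27 NF-kB subunits and feedback genes, 22 were positive and 1 negative, with a median of 0.56 (by library size alone 0.24, with 12 positive and 4 negative). NFKBIA, the inhibitor that NF-kB itself induces, had 21.5, 22.6 and 19.8 CPM without treatment, 39.2, 37.4 and 35.3 after ATRA, 25.2, 26.2 and 23.3 after CDK4/6i and 127, 123 and 126 after both drugs. The groups did not overlap, and the interaction was 1.52 ± 0.09 (SE; adjusted p = 7.21e-20 by edgeR's quasi-likelihood test). TRAF3, which restrains the alternative NF-kB pathway, had 194, 192 and 203 CPM with CDK4/6i+ATRA, compared with 78.3, 71.8 and 71.1 in the ATRA libraries, 80.8, 76.7 and 75.3 in the CDK4/6i libraries and 89.7, 82.1 and 84.3 in the non-treated ones. Both drugs left it slightly lower alone, with overlap between them, and both together raised it (1.55 ± 0.07). NFKBIE, another inhibitor, and NFKB1, a subunit, exceeded the sum (1.58 ± 0.08 and 0.4 ± 0.06), and TNFAIP8, a lipid transfer protein, was the negative gene (-1.46 ± 0.09). NF-kB motifs (GGAATTTCC, GGACTTTCC or GGGATTTCC) were found at 12 of 43 starts of the list (27.9%), at 1.21% of the starts of tested genes and at 1.22% of all listed starts. The promoters of TRAF3, the reversed gene, and of NFKBIA, the feedback gene, are shown with matches in capitals. Both genes were chosen for holding the motif before the start, after their values were seen, and members without a match there were passed over. TRAF3 is the plus strand of chr14:102777199-102777448, with 1 match that begins 32 bases before the start. NFKBIA is the minus strand of chr14:35404750-35404999, with 2 matches that begin 242 and 81 bases before it.
TRAF3: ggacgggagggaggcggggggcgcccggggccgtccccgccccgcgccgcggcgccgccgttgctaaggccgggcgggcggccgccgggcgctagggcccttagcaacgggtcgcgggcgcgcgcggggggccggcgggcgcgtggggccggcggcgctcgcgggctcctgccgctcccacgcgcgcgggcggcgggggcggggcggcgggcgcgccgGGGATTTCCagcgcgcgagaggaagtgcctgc
NFKBIA: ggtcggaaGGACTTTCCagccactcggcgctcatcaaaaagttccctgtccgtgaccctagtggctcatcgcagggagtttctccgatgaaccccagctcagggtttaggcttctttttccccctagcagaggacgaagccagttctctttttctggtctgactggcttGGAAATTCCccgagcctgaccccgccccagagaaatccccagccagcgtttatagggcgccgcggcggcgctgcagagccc

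Of 21 STAT factors, SOCS proteins and their targets, 6 were positive and 4 negative, with a median of 0.09 (-0.23 by library size alone, with 3 positive and 9 negative). PIM1, a survival kinase induced by STAT factors, had 4.98, 4.89 and 5.23 CPM in the 3 non-treated libraries, 0.777, 0.610 and 0.526 under CDK4/6i, 51.7, 47.1 and 50 under ATRA and 106, 105 and 106 under the combination. ATRA raised and CDK4/6i lowered it to near the floor, and CDK4/6i+ATRA stood above all (4.04 ± 0.20). PIM3, a relative, had 89.1, 82.6 and 80.3 CPM after ATRA and 85.1, 88.5 and 85.9 after CDK4/6i, beside 87.6, 87.6 and 84.9 in non-treated cells and 338, 327 and 338 after the combined treatment. Here the 3 other groups overlapped each other and the combination lay above them (2.0 ± 0.06).

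Of 39 interferon-stimulated genes, 23 were not called, 9 were negative, 7 of them falling short, and 7 positive (median -0.02, and by library size alone 1 positive and 16 negative). BST2, which tethers budding viruses, had 35.5 ± 1.14 CPM without treatment, 54 ± 0.898 after ATRA, 53.9 ± 0.628 after CDK4/6i and 32.3 ± 1.9 after both drugs (n = 3). Either drug alone raised it, and with both together 2 of the 3 libraries lay below the non-treated ones and 1 among them (-1.34 ± 0.08). IFITM1, an antiviral membrane protein, was reversed downward (-1.21 ± 0.09), and IFI30, a thiol reductase of antigen processing, exceeded the sum (0.75 ± 0.06). Of 15 genes of MHC class I presentation, 10 were negative and 0 positive (median -0.34), with 6 falling short, 3 exceeding the sum downward and 1 reversed, and 8 of the 15 are also listed on alternate contigs. NLRC5, the activator of class I genes, was reversed at 16.1 ± 1.46 CPM, under the 39.9 ± 4.06 of non-treated cells (-1.62 ± 0.11). CALR, a chaperone of class I assembly, exceeded the sum downward (-0.96 ± 0.06). Of 4 tested genes of MHC class II presentation, 1 was positive and 1 negative (median 0.39).

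Secreted factors held large single departures. Of 21 interleukins and growth factors, 8 were positive and 4 negative, with a median of 1.05, and 5 of the 21 had a group at the floor. Relative to all genes that median was 1.07, and it was 0.54 without non-treated library 2. Without the 5 genes at the floor the median was 0.43, and with at least 10 counts in every library it was 0.20 relative to all genes. IL1RN, the antagonist of interleukin-1, had 0.720, 0.439 and 1.01 CPM without treatment, 1.11, 0.408 and 0.442 after ATRA, 1.4, 1.28 and 1.46 after CDK4/6i and 45.7, 48.4 and 38.6 after both drugs. No single drug brought it above 1.46 CPM in any library, and the 3 CDK4/6i+ATRA libraries were well above (5.18 ± 0.48 (SE; adjusted p = 2.83e-13 by edgeR's quasi-likelihood test)). CSF1, the growth factor of macrophages, had 177, 169 and 177 CPM with CDK4/6i+ATRA, compared with 13.2, 12.3 and 12.9 in the ATRA libraries, 0.0518, 0.794 and 0.351 in the CDK4/6i libraries and 0.420, 0.188 and 0.450 in the non-treated ones. ATRA alone raised it, the CDK4/6i libraries lay on both sides of the non-treated ones, and CDK4/6i+ATRA stood above all others (3.68 ± 0.58, which rests on few counts in the non-treated and CDK4/6i libraries). HGF, hepatocyte growth factor, emerged downward (-1.14 ± 0.26). Of 11 tested inflammatory chemokines, 4 were positive and 0 negative, and 6 of the 11 had a group at the floor (median 0.61). It was 0.20 without these 6 genes and 1.08 without genes also listed on alternate contigs, so no direction is read from this list. Of 20 proteases of the matrix and the plasminogen system, with their inhibitors, 9 were positive and 5 negative (median 0.70, and by library size alone 0.39, with 7 positive and 6 negative). TIMP1, which inhibits matrix proteases, had 26.9, 23.8 and 24.2 CPM in the 3 non-treated libraries, 46.3, 46.5 and 47.9 under CDK4/6i, 142, 121 and 119 under ATRA and 1958, 2077 and 2037 under the combination. Relative to all genes the median was 0.73, and 0.45 without non-treated library 3. The groups did not overlap, and the combined level was 8.46 times the expected 239 CPM (3.08 ± 0.08 (SE; adjusted p = 1.47e-32 by edgeR's quasi-likelihood test)). PLAUR, the urokinase receptor, exceeded the sum upward (1.43 ± 0.08), and PLAU, urokinase, exceeded it downward (-0.66 ± 0.14). Of 10 genes of eicosanoid synthesis, 3 were positive and 4 negative, with a median of 0.13 (-0.19 by library size alone, with 2 positive and 5 negative), and LTA4H, which makes leukotriene B4, had 0.8 ± 0.07. The median relative to all genes was 0.15, and it lay between -0.02 without CDK4/6i+ATRA library 3 and 0.30 without non-treated library 2, so no direction is read from it.

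**Figure D5:**
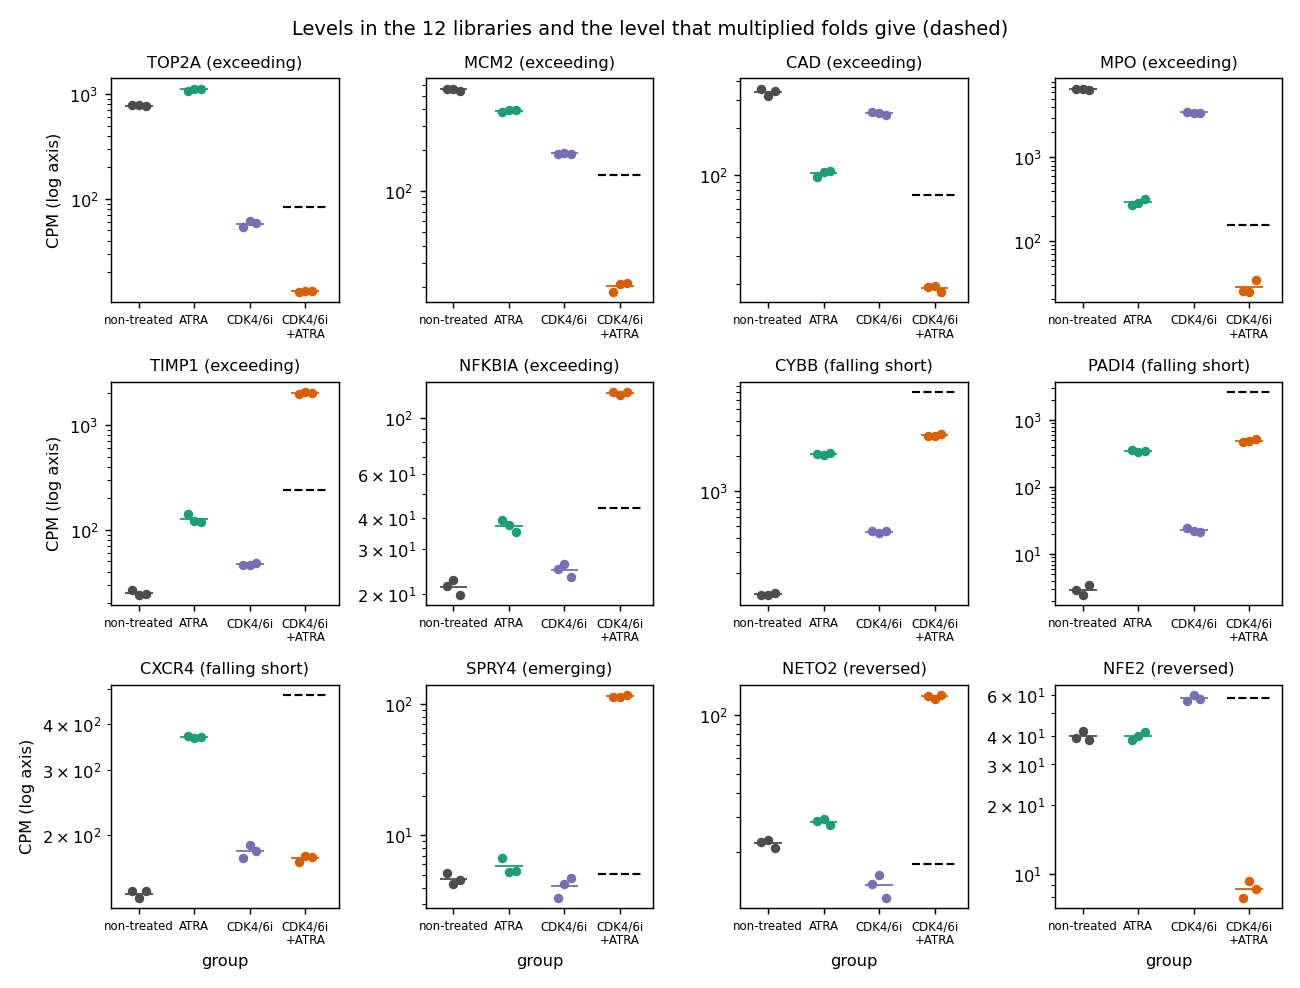
CPM (y axis, log scale) of 12 genes in the 3 libraries of each group (points, with the group mean as a line), and the level expected if the folds of the single drugs multiplied (dashed). TOP2A, MCM2, CAD and MPO lie below and TIMP1, NFKBIA, SPRY4 and NETO2 above the dashed line in all 3 CDK4/6i+ATRA libraries, and CYBB and PADI4 reach their highest group yet stay under it.

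Across all functions, the genes with the largest interactions of each class, among 9137 with a mean of at least 5 CPM and no group at the floor, came from several of these groups and from none of them. Upward excess was largest for TMEM158, a membrane protein induced by RAS signaling, with 32.6, 25.7 and 22.2 CPM after ATRA and 1.4, 1.65 and 1.34 after CDK4/6i, beside 4.62, 3.88 and 3.49 in non-treated cells and 420, 444 and 434 after the combined treatment. ATRA raised it and CDK4/6i lowered it, and the combined level was 44 times the expected 9.82 CPM (5.46 ± 0.23 (SE; adjusted p = 1.63e-25 by edgeR's quasi-likelihood test)). SLC9A7, a sodium and proton exchanger of the Golgi, UPP1, which cleaves uridine, and CSF1 followed, with 4.44 ± 0.75, 3.88 ± 0.58 and 3.68 ± 0.58. Downward excess was largest for NEIL3, a DNA glycosylase active in S phase, with 76.5, 77.9 and 71 CPM without treatment, 53.2, 62.7 and 53.9 after ATRA, 22.4, 22.2 and 22.4 after CDK4/6i and 0.366, 0.623 and 0.248 after both drugs. Both drugs lowered it without overlap, and the combined level was close to the floor (-5.34 ± 0.22 (SE; adjusted p = 9.87e-26 by edgeR's quasi-likelihood test)).

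Among genes that fell short of a downward sum, BATF3, an AP-1-like factor of dendritic cells, led. It had 11.4, 11.2 and 8.34 CPM with CDK4/6i+ATRA, compared with 3.2, 2.85 and 1.71 in the ATRA libraries, 3.06, 3.11 and 3.39 in the CDK4/6i libraries and 9.54, 8.14 and 7.2 in the non-treated ones. Each drug alone lowered it, and with both drugs it overlapped non-treated cells (3.38 ± 0.25 (SE; adjusted p = 3.1e-16 by edgeR's quasi-likelihood test)). PCK2, an enzyme that makes phosphoenolpyruvate in mitochondria, VIM, vimentin, and LRRC8C, a subunit of anion channels, followed with 1.88 ± 0.25, 1.78 ± 0.33 and 1.77 ± 0.14. Among genes that fell short of an upward sum, F2RL3, a thrombin receptor, had 1.38, 1.88 and 1.46 CPM in the 3 non-treated libraries, 2.38, 1.65 and 2.51 under CDK4/6i, 37.5, 32.9 and 33.8 under ATRA and 3.75, 3.74 and 5.28 under the combination. The rise with ATRA was almost lost when CDK4/6i was added (-3.5 ± 0.27 (SE; adjusted p = 8.73e-16 by edgeR's quasi-likelihood test)). PPP1R16B, a regulatory subunit of a phosphatase, was lower with both drugs than with ATRA alone (17.1 ± 1.21 against 29.8 ± 1.95 CPM). PADI4, which converts arginine to citrulline in histones, and KCNJ15, a potassium channel, reached with both drugs at least the level of either drug but not the expected one (-2.42 ± 0.12 and -2.4 ± 0.25), and PADI4 is also listed on an alternate contig.

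In reversed genes the combined effect had the opposite direction to the sum, though not always to that of each drug. NETO2, an accessory subunit of glutamate receptors, had 28.7, 29.4 and 27.3 CPM after ATRA and 13.8, 15.3 and 11.6 after CDK4/6i, beside 22.6, 23.1 and 20.9 in non-treated cells and 125, 120 and 126 after the combined treatment. CDK4/6i alone lowered it, ATRA alone raised it a little, and the combination stood above both (2.83 ± 0.10 (SE; adjusted p = 2.72e-28 by edgeR's quasi-likelihood test)). ATP2B1, a calcium pump of the plasma membrane, had 51.3, 49.99 and 49.6 CPM without treatment, 36.1, 33.5 and 38.1 after ATRA, 44.3, 45.8 and 46.9 after CDK4/6i and 192, 199 and 185 after both drugs. Both drugs lowered it alone and together raised it above all other libraries (2.56 ± 0.07). PBX3, a cofactor of HOX proteins, and DUSP2, a phosphatase of MAP kinases, were the other 2 of the positive leaders (2.64 ± 0.25 and 2.33 ± 0.11). In the other direction, NFE2, a factor of megakaryocytes and of erythroid cells, had 7.87, 9.35 and 8.67 CPM with CDK4/6i+ATRA, compared with 38.5, 39.7 and 41.6 in the ATRA libraries, 56.8, 60.2 and 57.6 in the CDK4/6i libraries and 39.1, 41.9 and 38.1 in the non-treated ones. ATRA left it in the range of non-treated cells, CDK4/6i raised it, and the combined libraries were the lowest (-2.76 ± 0.10 (SE; adjusted p = 2.37e-27 by edgeR's quasi-likelihood test)). CDC42EP4, an effector of a small GTPase, had -3.33 ± 0.14, SYNPO2, an actin-associated protein, -2.69 ± 0.25, and LAIR1, an inhibitory receptor for collagen, -2.23 ± 0.20, the last also listed on an alternate contig.

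In the emerging class the single-drug effects did not sum to a called change. After IL1RN, RGCC, a regulator of the cell cycle, had 0.841, 1.06 and 0.506 CPM in the 3 non-treated libraries, 0.363, 0.549 and 0.175 under CDK4/6i, 2.89, 1.98 and 1.6 under ATRA and 24.9, 24 and 21.1 under the combination. It reached 2.89 CPM at most with a single drug and 21.1 or more with both (4.57 ± 0.48). SPRY4 and PIM1 were next. Downward, OLIG1, a factor better known in glia, had 3.32, 4.02 and 4.75 CPM after ATRA and 9.43, 11.7 and 10.5 after CDK4/6i, beside 7.86, 7.64 and 6.41 in non-treated cells and 0.733, 0.445 and 0.413 after the combined treatment. ATRA and CDK4/6i moved it in opposite directions, and the combination was below both without overlap (-3.45 ± 0.33 (SE; adjusted p = 1.07e-12 by edgeR's quasi-likelihood test)). INPP4B, a phosphatase of phosphoinositides, HRH4, a histamine receptor, and SMPDL3B, a lipid-modifying enzyme, had -3.03 ± 0.28, -2.66 ± 0.16 and -2.58 ± 0.28.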

How the data were processed

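The authors prepared RNA-Seq libraries with a directional kit from total RNA of HL60 cells. The submitters' processing notes name Trimmomatic 0.33, STAR 2.7.11a and hg38, and the methods name RSEM and DESeq2, while the deposited table has the layout of featureCounts. The deposited values are raw counts per gene, whole numbers without normalization. Whether reads were counted by strand is not given in the sources used here, so overlapping genes may share reads. Column names were matched to the labels to give each library its group.

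The members and gene lists were chosen with earlier results of these data known. After filterByExpr on the 4 groups, 13318 genes were scaled by TMM and fitted with edgeR 4.0.16 under R 4.3.3. Its quasi-likelihood F test, on 1 model of the 4 groups with 8 residual degrees of freedom, gave the interaction and the single-drug, summed and combined effects. P-values were adjusted by Benjamini-Hochberg over all tested genes, and calls were made under 0.05. The biological coefficient of variation was 3.7%. Libraries of a group differed by more than sampling noise. A gene with at most 3 counts was taken as not detectable at this depth, and this floor covers counting error only.

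The genes named are the leading genes of each list, up to 2 called members with the highest and 2 with the lowest interaction per list, and the 4 largest interactions of each class and sign, the last 2 parts among genes with at least 5 CPM on average and no group at the floor, leaving out symbols of antisense and noncoding types. Not every gene that this rule covers is given. Any other gene was chosen after its values were seen. Of the list members, 286 were not tested, 95 of them with 0 counts in every library and 52 also listed on alternate contigs.

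Results were recomputed with the size factors of DESeq2, with unscaled library sizes, with a minimum of 10 counts in each library, without a filter, with DESeq2 1.42.0 as the tool, with the replicate number as a block, and without each library in turn. Leaving out genes on alternate contigs, or genes with a group at the floor, was added after seeing the data. Promoters came from RefSeq on GRCh38.p14, which matched 9788 of the tested genes. Some genes and 1 list are not reported here. Figures were drawn with matplotlib.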

Additional observations from a re-analysis of the deposited data

How the results depend on the processing

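The 6852 called interactions became 6861 with the size factors of DESeq2, 6404 with DESeq2 as the tool, 6261 with at least 10 counts in every library, 6438 without a filter (37.9% of them positive, against 47.5% of the main calls) and 6543 without genes on alternate contigs. Leaving out each library in turn gave 6501 to 6689 calls. By library size alone, 1375 interactions were positive and 6059 negative, in 7434 calls that share 4969 genes of the same sign with the main ones and 106 of the opposite sign. The counts of the exceeding, falling short, reversed and emerging classes stayed within 1.5 times in these settings, apart from DESeq2 as the tool, for which they were not computed. Membership turned over more: by library size alone 8690 of the 13318 genes kept their class, and 1272 of the called genes lost the call or sign without 1 library. The same replicate numbers did not mark libraries that deviate together, with correlations between -0.0702 and 0.0328 in the 18 pairs of libraries. A fit with the replicate number as a block gave 6775 calls (3229 positive and 3546 negative), of which 6758 were shared with the same sign.

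The list medians that moved beyond the spread of libraries are given relative to the median of all genes, and the cause was not tested. With at least 10 counts in every library they were -1.17 for homologous recombination and Fanconi anemia, -0.59 for G1 cyclins, CDK4/6 and RB-E2F, -0.03 for secondary and tertiary granules, -0.06 for myeloid transcription factors, -0.21 for surface antigens, 0.20 for interleukins and 0.12 for lipid-sensing genes, a setting that drops genes low in any group. Without genes on alternate contigs they were 0.27 for the NADPH oxidase, -0.17 for surface antigens, 1.1 for chemokines, 0.80 for interleukins and -0.44 for MHC class I. Without genes with a group at the floor they were 0.46 for retinoid genes, -0.65 for secondary and tertiary granules, -0.12 for myeloid transcription factors, -0.31 for surface antigens, 0.21 for chemokines and 0.45 for interleukins. Leaving out 1 library gave -1.11 to -0.97 for purine and pyrimidine synthesis, 0.61 to 0.88 for retinoid genes, -0.44 (without non-treated library 1) to -0.02 (without CDK4/6i library 2) for secondary and tertiary granules, 0.26 to 0.36 for integrins, 0.05 to 0.19 for cytokine receptors, -0.22 to 0.03 for surface antigens, 0.54 (without non-treated library 2) to 1.25 for interleukins and 0.45 (without non-treated library 3) to 0.75 for proteases. Other medians moved by over 1.5 times without 1 library, but within the spread of libraries. They were 0.26 for MHC class II without CDK4/6i+ATRA library 2 (0.41 with all), -0.11 for azurophil granules without non-treated library 3 (-0.18), and 0.06 for STAT factors without CDK4/6i library 1 (0.11). S100 genes (-0.21) had -0.35 without non-treated library 1 and -0.11, -0.12 and -0.12 without non-treated libraries 2 and 3 and CDK4/6i library 2. The respiratory chain (-0.11) had -0.06, -0.07 and -0.05 without non-treated library 3, CDK4/6i library 1 and CDK4/6i+ATRA library 1. Eicosanoid synthesis (0.15) ranged from -0.02 without CDK4/6i+ATRA library 3 to 0.30 without non-treated library 2. Lists with a median within 0.1 of that of all genes, such as CDK inhibitors (-0.17 to 0.17), chemoattractant receptors (-0.13 to 0.00), Fc and complement receptors (-0.08 to 0.05) and interferon-stimulated genes (-0.14 to 0.00), lie too near 0 for a direction to be read. With at least 10 counts in every library, Fc and complement receptors had -0.15, pattern recognition receptors 0.05, S100 genes -0.33, CDK inhibitors -0.18 and MHC class II 0.27.

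By library size alone the interaction turned negative for ATRX (-0.27), BIRC2 (-0.04), CCL2 (-0.12), CD33 (-0.30), CEBPB (-0.05), DCTD (-0.13), EEF2 (-0.11), FBL (-0.16), JAK1 (-0.07), MDM2 (-0.09), MXD1 (-0.30), PKNOX1 (-0.03), POLR3C (-0.0031), PSMB5 (-0.16), SF3B1 (-0.31), SHMT2 (-0.13), SLC2A3 (-0.20), SOD2 (-0.25) and TRIB3 (-0.06), against an all-gene shift of -0.32. Of 349 named genes, 31 changed the call or moved by over 1.5 times without 1 library. Depth limits genes with a group at 3 counts or fewer, 634 of those tested, for which no fold is given.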
